A study of Mus musculus with 8 samples.

Results

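Gluconeogenesis and its control by cyclic AMP (cAMP) were described in mouse liver through 10 genes: Pck1, G6pc, Fbp1, Pcx, Ppargc1a, Tat, Sik1, Slc37a4, Crem and Sds. They were chosen by name, with earlier results of these data known, and all 10 were found among the 43630 entries of the all-genes table. RNA-seq had been run on the livers of 8 male C57BL/6 mice, 7 to 8 weeks old, with 1 library per mouse. Of these, 4 mice had received 5 µg of antagomiR-122, a modified antisense inhibitor of the hepatocyte microRNA miR-122, into the tail vein, and 4 had received the same amount of antagomiR-control. All 8 mice were injected subcutaneously with CL316243 (1 mg/kg) after 48 h and were killed after another 2 h. CL316243 is an agonist of the β3-adrenergic receptor, which makes fat cells release fatty acids, so both groups were under that stimulus and the comparison concerns the antagomiR alone. Mice without CL316243 were not analysed here, and the labels give neither feeding state nor time of day.

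Gluconeogenesis makes glucose in the liver from lactate, amino acids and glycerol. Glucagon and adrenergic agonists raise cAMP in hepatocytes, protein kinase A then phosphorylates the transcription factor CREB, and CREB with its CRTC coactivators binds cAMP response elements (CREs) in promoters such as that of Pck1. Glucocorticoids and FoxO1 act on many of the same promoters, and insulin opposes them. Among the 10 genes, Pcx (pyruvate carboxylase), Pck1 (phosphoenolpyruvate carboxykinase), Fbp1 (fructose-1,6-bisphosphatase) and G6pc (the catalytic subunit of glucose-6-phosphatase) encode the enzymes that set gluconeogenesis apart from glycolysis. Slc37a4 encodes the transporter that brings glucose-6-phosphate into the endoplasmic reticulum, where G6pc works. Tat (tyrosine aminotransferase) and Sds (serine dehydratase) break down amino acids, Ppargc1a encodes the coactivator PGC-1α, and Sik1 and Crem encode a kinase and a transcriptional repressor (ICER, made from an internal Crem promoter) that restrain the CREB response.

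The promoters are shown because the CRE is what groups several of these genes under cAMP. RefSeq sequences (GRCm38.p6) of 250 bases before to 50 bases after the annotated start were matched for 7 of the 10 genes, with 10 entries in all. Those of Sik1, Sds and Crem were not used here. The core of the CRE, TGACG or its reverse complement CGTCA, was searched on both strands, and capitals mark it below. Pck1 lies on chr2:173152823-173153122 on the plus strand and Ppargc1a on chr5:51567676-51567975 on the minus strand, and each held 1 CRE core. G6pc, on chr11:101367466-101367765 on the plus strand, and Fbp1, on chr13:62888233-62888532 on the minus strand, held 0 matches to these letters. Forms of the CRE with other letters were not searched, so 0 does not mean that a promoter lacks a CRE.
Pck1: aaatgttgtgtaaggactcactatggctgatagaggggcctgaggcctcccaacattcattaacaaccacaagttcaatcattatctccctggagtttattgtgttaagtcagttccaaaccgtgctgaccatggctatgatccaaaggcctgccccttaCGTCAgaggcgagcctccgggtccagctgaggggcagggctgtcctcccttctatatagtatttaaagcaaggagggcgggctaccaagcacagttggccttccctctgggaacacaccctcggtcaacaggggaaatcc
Ppargc1a: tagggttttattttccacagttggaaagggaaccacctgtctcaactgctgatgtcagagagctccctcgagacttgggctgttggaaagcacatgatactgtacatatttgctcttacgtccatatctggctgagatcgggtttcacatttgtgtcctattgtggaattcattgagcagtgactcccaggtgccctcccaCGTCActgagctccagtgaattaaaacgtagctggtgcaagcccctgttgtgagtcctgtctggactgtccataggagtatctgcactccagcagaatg
G6pc: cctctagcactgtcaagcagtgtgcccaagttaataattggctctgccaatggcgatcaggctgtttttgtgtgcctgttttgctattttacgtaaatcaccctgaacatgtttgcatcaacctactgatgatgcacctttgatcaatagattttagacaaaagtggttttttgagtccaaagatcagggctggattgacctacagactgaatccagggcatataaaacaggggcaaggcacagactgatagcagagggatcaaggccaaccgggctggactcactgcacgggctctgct
Fbp1: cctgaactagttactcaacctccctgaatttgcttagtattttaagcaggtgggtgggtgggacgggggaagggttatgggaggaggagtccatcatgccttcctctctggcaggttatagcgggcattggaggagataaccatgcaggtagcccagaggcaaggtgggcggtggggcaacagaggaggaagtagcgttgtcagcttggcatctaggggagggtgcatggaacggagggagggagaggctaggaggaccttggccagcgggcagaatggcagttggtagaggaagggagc

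The CRE core of Pck1 began 90 bases before the start and that of Ppargc1a 49 bases before it, both with the motif on the strand opposite to the gene. Slc37a4 also held CRE cores, in 2 of its 3 annotated promoters, which overlap each other. Both lie before the gene start in the authors' table (44398176). The remaining promoter, chr9:44398104-44398403, spans that start and held 0 matches. Its sites lay at chr9:44396885-44396889 and chr9:44397017-44397021 on GRCm38.p6, shown here with 30 bases each on the plus strand.
Slc37a4 first site: tgacaggcaggaTGACGtctccatcccagg
Slc37a4 second site: gcgaaggaggggCGTCAgtgagggcgggac

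A CRE core was thus found in 3 of 7 genes and in 4 of their 10 promoter entries, against 20.8% of 32841 promoters of the same length and 30.8% of the promoters of genes tested here. The full palindrome TGACGTCA was in 0 of the 7, against 1.79% of all promoters and 2.94% of those of genes tested here. The FoxO site TGTTTAC and the glucocorticoid receptor core TGTTCT were also in 0, with both strands searched. Their shares were 3.65% and 19.0% of all promoters, and 2.72% and 12.9% of those of genes tested here. Other forms of these sites were not searched. The TATAAA box was in 2, G6pc and 1 Slc37a4 promoter, against 13.6% and 7.57%. The shares count promoter entries, not genes. These are matches of letters within short windows and do not show binding.

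The libraries were of similar depth except 1. Relative depth, read from the steps between low FPKM values (read fragments scaled to transcript length and library size), was 0.897 to 1.054 in antagomiR-122 replicates 1 to 3 and 2.38 in antagomiR-122 replicate 4, and 0.918 to 1.14 in the antagomiR-control livers. That replicate also stood apart on the first principal component (38.2, against -13.6 to 0.81 in the other libraries), had 9.17% of its FPKM in mitochondrial genes against 20.4% to 24.1%, and listed at 0 a set of 15 genes that were above 5 FPKM in all others. None of the 10 genes was listed at 0 in any liver. Without this replicate 9 of the 10 kept the direction of their difference, and only Crem turned, with a log2 fold change of 0.02. The liver label was checked on hepatocyte markers: Apoa1 averaged 3731 ± 769 FPKM in antagomiR-122 livers and 3934 ± 1018 in antagomiR-control livers, and Ttr 4174 ± 389 and 4216 ± 222 (SD, n = 4 each), while Alb was listed at 0 in all libraries. The 5 exocrine pancreas markers summed to 0.0766 to 0.443 FPKM in antagomiR-122 livers and 0 to 0.282 in antagomiR-control livers. The 4 fat cell markers, a cell type that also expresses Pck1, summed to 0.238 to 3.74 FPKM in antagomiR-122 livers and 0.178 to 0.252 in antagomiR-control livers. Most of that sum was Cfd, and Adipoq was at 0 to 0.451 FPKM and Lep at 0 to 0.0135 FPKM in antagomiR-122 livers. Pck1 was at 429 FPKM in antagomiR-122 replicate 3, where the fat cell markers were highest. The part of fat cells in the Pck1 values was not tested. The blood and immune markers summed to 323 to 481 and 264 to 405 FPKM, the endothelial and stellate markers to 34.6 to 59.0 and 43.0 to 57.0 FPKM, and the 4 bile duct markers to 2.196 to 3.90 and 2.71 to 4.04 FPKM, in antagomiR-122 and antagomiR-control livers. In bulk tissue, fewer cells of a type and less RNA per cell cannot be told apart.

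The metabolic enzymes were among the abundant liver transcripts, Crem was intermediate, and Sik1 and Ppargc1a were low. Over all 8 livers Fbp1 was highest, at 616 ± 83.7 FPKM (SD, n = 8), followed by Pck1 at 495 ± 119, Tat at 457 ± 230 and G6pc at 384 ± 81.8. Fbp1 was above Pck1 in 7 of 8 livers, Pck1 above Tat in 6 and Tat above G6pc in 5, so these neighbours crossed. Differences in level between genes were not tested. G6pc was above Pcx (126 ± 10.9 FPKM) in all 8. Pcx, Sds (108 ± 39.5) and Slc37a4 (94.5 ± 25.9) again crossed, in 6 and 5 of 8 livers in that order. Crem followed at 39.6 ± 7.28 FPKM, then Sik1 at 4.11 ± 1.21 and Ppargc1a at 1.18 ± 0.347, each below its neighbour in all 8 livers. By mean level Fbp1 was the 123rd entry of the table and Ppargc1a the 10789th.

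**Figure D1:**
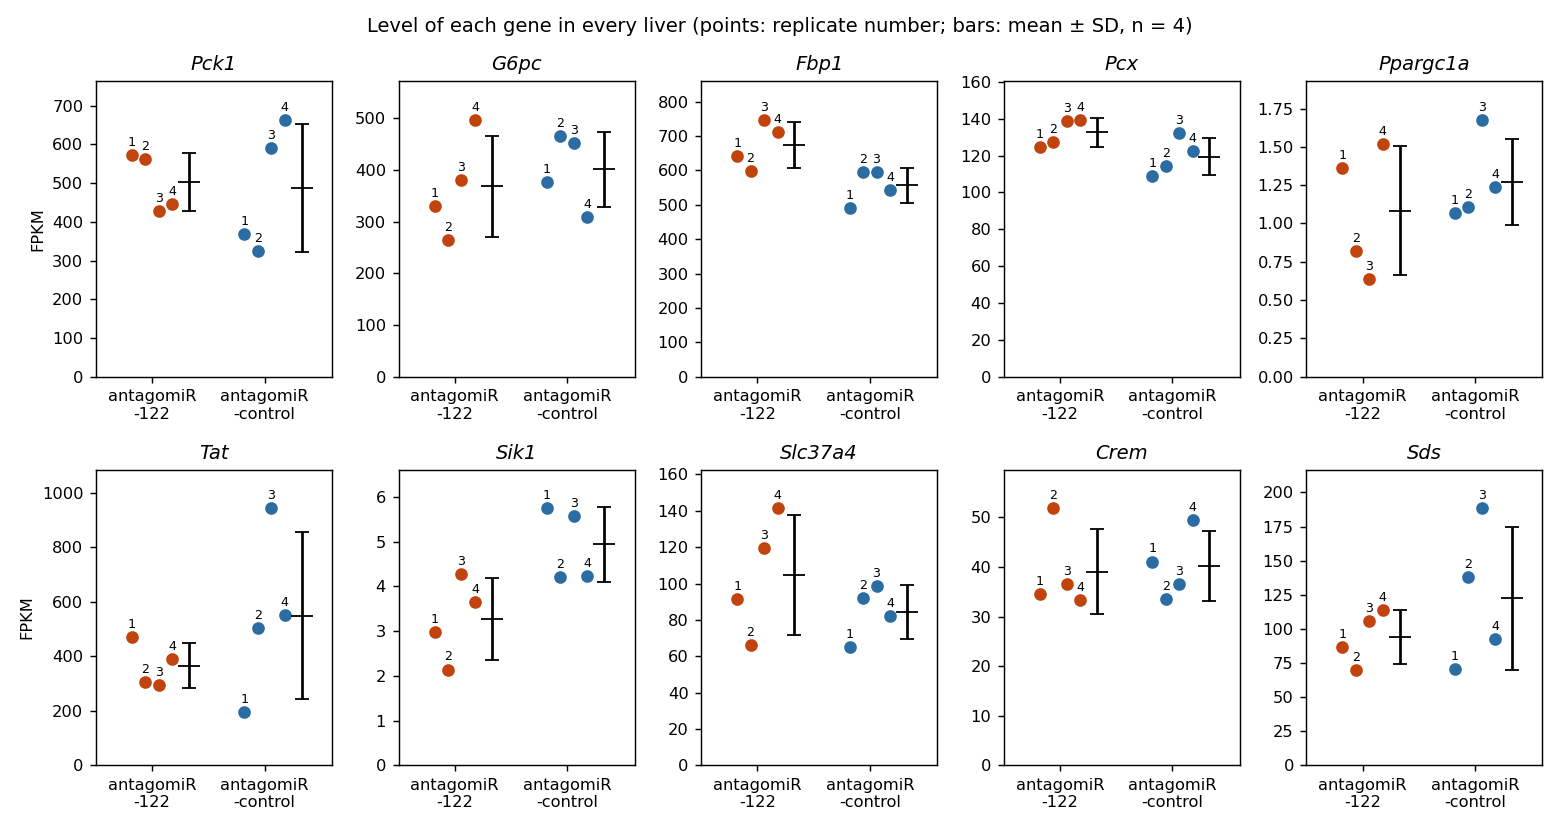
FPKM of the 10 genes (vertical axes, each from 0) in the 4 antagomiR-122 livers and the 4 antagomiR-control livers; numbered points are single livers, and the bars give the mean ± SD (n = 4). For Fbp1 all antagomiR-122 points lie above the antagomiR-control points, while the groups of the other 9 genes overlap.

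None of the 10 genes differed between the groups beyond the threshold of a test over all genes, and the directions were mixed. The enzymes Fbp1 and Pcx, the transporter Slc37a4 and Pck1 were higher with antagomiR-122, and G6pc, Tat, Sds, Ppargc1a, Sik1 and Crem were lower. Fbp1 (1.21-fold higher) and Sik1 (0.662-fold of the control level) had the smallest p. The values of each liver follow, by role, with the position of each gene as the authors' table gives it on GRCm38.

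Pck1 (chr2:173153048-173159273, plus strand), whose product converts oxaloacetate to phosphoenolpyruvate, was at 573, 562, 429 and 446 FPKM in antagomiR-122 replicates 1 to 4, against 368, 325, 590 and 664 FPKM in antagomiR-control replicates 1 to 4. The control livers fell into a low and a high pair that enclosed all 4 antagomiR-122 livers. The means were 502 ± 75.4 and 487 ± 166 FPKM (SD, n = 4 each), and the log2 fold change was 0.10 with a 95% interval of -0.41 to 0.61 (limma, Benjamini-Hochberg adjusted p = 0.947). The direction was not stable: without antagomiR-control replicate 2 the log2 fold change was -0.07, and without antagomiR-control replicate 1 it was -0.01.

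G6pc (chr11:101367561-101377903, plus strand), whose product releases free glucose, was at 330, 264, 380 and 497 FPKM in antagomiR-122 livers and at 377, 465, 452 and 310 FPKM in antagomiR-control livers. The highest and the lowest of the 8 values were both in the antagomiR-122 group. Its log2 fold change was -0.14 (95% interval -0.58 to 0.29). Without antagomiR-122 replicate 2, the lowest liver, it was 0.0034.

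Fbp1 (chr13:62864753-62888282, minus strand), whose product hydrolyses fructose-1,6-bisphosphate, was at 641, 598, 748 and 711 FPKM in antagomiR-122 livers, against 491, 596, 596 and 544 FPKM in antagomiR-control livers. The groups did not overlap, but antagomiR-122 replicate 2 lay less than 2 FPKM above the highest control, and after median-of-ratios scaling the groups overlapped. Means were 675 ± 67.5 and 557 ± 50.4 FPKM (SD, n = 4 each), with an exact two-sided permutation p of 0.0286, the smallest that 4 against 4 allow. The log2 fold change was 0.28 (95% interval 0.06 to 0.50), and adjustment over the whole table left it above the threshold (limma, unadjusted p = 0.0194, Benjamini-Hochberg adjusted p = 0.580).

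Pcx (chr19:4510472-4621752, plus strand), which carboxylates pyruvate at the first step of the pathway in mitochondria, was at 125, 127, 139 and 139 FPKM in antagomiR-122 livers, against 109, 114, 132 and 122.5 FPKM in antagomiR-control livers. All 4 antagomiR-122 livers were above the control mean, and 1 control liver, replicate 3, was among them. It varied least of the 10 genes, with a coefficient of variation of 5.73% within antagomiR-122 and 8.56% within antagomiR-control. The log2 fold change was 0.15 (95% interval -0.03 to 0.33; limma, unadjusted p = 0.0956).

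Slc37a4 (chr9:44398176-44402963, plus strand), the glucose-6-phosphate transporter, was at 91.5, 66.0, 119 and 141 FPKM in antagomiR-122 livers, against 64.9, 92.0, 98.8 and 82.3 FPKM in antagomiR-control livers. AntagomiR-122 replicates 3 and 4 were above every control and the other 2 livers of that group were within the control range. Its log2 fold change was 0.27 (95% interval -0.24 to 0.77). Without replicate 4 of that group, the library that stood apart, it was 0.10, without antagomiR-control replicate 1 it was 0.15, and without antagomiR-122 replicate 2 it was 0.47 (limma, unadjusted p = 0.0266).

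Tat (chr8:109990437-109999803, plus strand), a classical glucocorticoid- and cAMP-induced enzyme of tyrosine breakdown, was at 471, 305, 296 and 389 FPKM in antagomiR-122 livers, against 197, 504, 942 and 552 FPKM in antagomiR-control livers. The control livers spanned the whole range of the 8, and all 4 antagomiR-122 livers were under the control mean. Its means of 365 ± 82.2 and 549 ± 306 FPKM (SD, n = 4 each) gave a log2 fold change of -0.41 with a 95% interval of -1.40 to 0.58. Without antagomiR-control replicate 3 it was -0.08, and without antagomiR-control replicate 1 it was -0.83 (limma, unadjusted p = 0.00823, Benjamini-Hochberg adjusted p = 0.686). Sds (chr5:120476531-120483932, plus strand), which deaminates serine and threonine, was at 86.9, 69.96, 106 and 114 FPKM in antagomiR-122 livers, against 70.5, 138, 188 and 92.8 FPKM in antagomiR-control livers. Here too antagomiR-control replicate 3 was highest and the log2 fold change of -0.30 (95% interval -0.98 to 0.38) was -0.06 without it, -0.17 without antagomiR-122 replicate 2 and -0.53 without antagomiR-control replicate 1. Plbd2, a gene that overlaps Sds on the opposite strand, was at 23.4 ± 1.11 and 23.1 ± 2.17 FPKM in antagomiR-122 and antagomiR-control livers (SD, n = 4 each), and without a known strand setting reads in the shared stretch cannot be told apart. Pcx, Ppargc1a and Crem also have an annotated gene on the opposite strand, and Lrfn4, that of Pcx, was at 0.818 ± 0.228 and 0.66 ± 0.14 FPKM in antagomiR-122 and antagomiR-control livers.

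Ppargc1a (chr5:51454249-51567725, minus strand), the coactivator that glucagon and fasting raise in liver, was at 1.36, 0.821, 0.635 and 1.52 FPKM in antagomiR-122 livers, against 1.068, 1.10, 1.68 and 1.24 FPKM in antagomiR-control livers. In the antagomiR-122 group 2 livers were below every control and 2 were above the control mean. Its log2 fold change was -0.14 (95% interval -0.49 to 0.21) on the log2(FPKM + 1) scale, which understates changes at so low a level, and -0.27 with a pseudocount of 0.1. It was -0.05 with weights per liver, and over livers left out it lay between -0.03 (without antagomiR-122 replicate 3) and -0.24 (without antagomiR-122 replicate 4).

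Sik1 (chr17:31844248-31855792, minus strand), a kinase that CREB induces and that keeps CRTC2 out of the nucleus, was at 2.99, 2.14, 4.29 and 3.66 FPKM in antagomiR-122 livers, against 5.75, 4.21, 5.58 and 4.24 FPKM in antagomiR-control livers. All 4 antagomiR-122 livers were under the control mean, and only replicate 3 of that group overlapped the 2 lowest controls. Its means were 3.27 ± 0.92 and 4.94 ± 0.833 FPKM (SD, n = 4 each; exact two-sided permutation p = 0.0857). With a log2 fold change of -0.49 (95% interval -0.86 to -0.12) it had the smallest p of the 10 in limma (unadjusted p = 0.0143, Benjamini-Hochberg adjusted p = 0.551). Crem (chr18:3266048-3337748, minus strand) was at 34.5, 51.8, 36.5 and 33.4 FPKM in antagomiR-122 livers, against 41.1, 33.5, 36.5 and 49.5 FPKM in antagomiR-control livers. The highest liver of each group, antagomiR-122 replicate 2 and antagomiR-control replicate 4, stood above the rest, and the log2 fold change of -0.05 (95% interval -0.40 to 0.30) changed sign without antagomiR-122 replicate 1, antagomiR-122 replicate 4 or antagomiR-control replicate 4. The annotation lists 39 transcripts of Crem, so these gene values do not separate ICER from the other products.

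**Figure D2:**
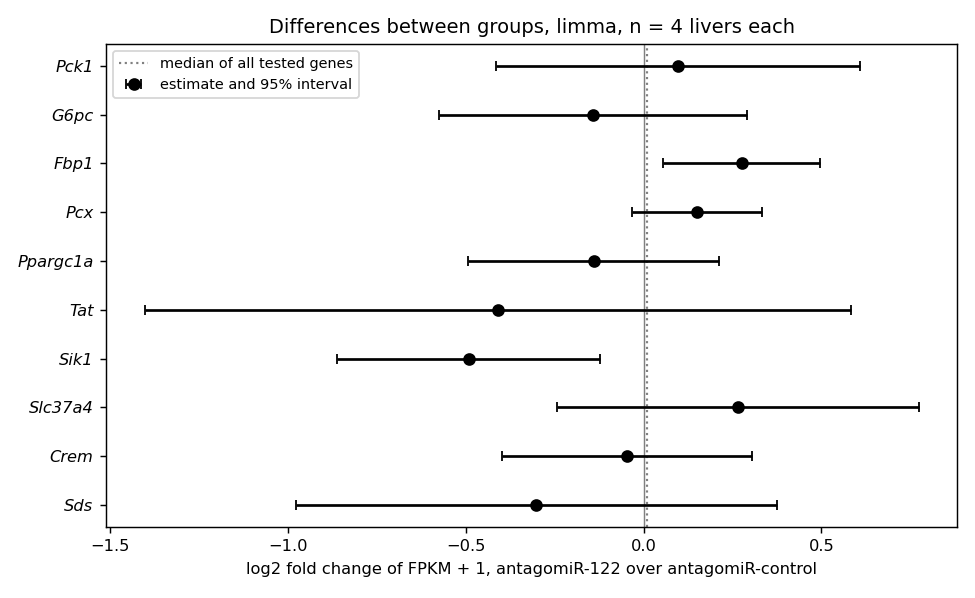
Log2 fold change (horizontal axis, FPKM + 1, antagomiR-122 over antagomiR-control) of the 10 genes, with points for the limma estimate and bars for the 95% interval (n = 4 livers each). The intervals of Fbp1 (0.06 to 0.50) and Sik1 (-0.86 to -0.12) do not reach 0 before adjustment, and Tat has the widest.

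Across the table, limma with Benjamini-Hochberg adjustment called 0 of 11131 genes tested (0%; smallest adjusted p = 0.251), and 0 of the 10. At an unadjusted p under 0.05 there were 2 of 10, Fbp1 higher and Sik1 lower, beside 7.44% of all genes, 3.76% higher and 3.67% lower. Fbp1 was no longer among them with quantile normalization (limma, unadjusted p = 0.103), without antagomiR-122 replicate 3 (0.0532) or without antagomiR-control replicate 1 (0.064), and the count was 1 to 3 over livers left out. Groups did not overlap in 1 of 10, Fbp1, beside 4.52% of all genes tested. Among 10 genes these are counts of 2 and 1, too few to be read against those shares. The 10 genes had a median log2 fold change of -0.09, beside 0.01 over all genes tested, with 4 higher and 6 lower. That median was 0.03 with a filter of mean 5 FPKM, which drops Sik1 and Ppargc1a, and -0.03 without antagomiR-122 replicate 3. The intervals of Tat and Sds reached down to -1.40 and -0.98, so these data do not show that the levels were alike.

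In the authors' deposited table, Cuffdiff tested all 10 genes and called 1, Sik1, which is lower with antagomiR-122 at a log2 fold change of -0.60 (q = 0.00526). That table calls 1.42% of 13259 genes, and 0.86% as lower. The next smallest p in the authors' deposited table were those of Tat (p = 0.004, q = 0.173) and Slc37a4 (p = 0.0155, q = 0.390), and Fbp1 had p = 0.0697. The group values of the authors' deposited table come from the same 8 libraries, so the direction is not a second observation.

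Of the 10 genes, 8 varied more between livers, within both groups, than the median transcript. The share of all genes above both medians was not computed. For Sik1 and Ppargc1a, which were low, the reads behind the values are unknown. Their counting noise cannot be told apart from differences between mice. The median coefficient of variation over all tested genes was 13.5% within antagomiR-122 and 11.1% within antagomiR-control. Tat reached 22.5% and 55.8%, Sds 20.9% and 42.6%, Pck1 15.0% and 34.0%, and Ppargc1a 39.0% and 22.0%, in antagomiR-122 and antagomiR-control livers. Fbp1 and Pcx were under both medians. Of the 10 genes, 6 had the larger SD in antagomiR-122 livers and 4, Pck1, Tat, Sds and Pcx, in antagomiR-control livers. AntagomiR-control replicate 3 was among the 3 highest livers for 8 genes and was highest for Ppargc1a, Tat and Sds, while antagomiR-control replicate 1 was lowest for 4, Fbp1, Pcx, Tat and Slc37a4. In the other group, antagomiR-122 replicate 4, the library that stood apart, was among the 3 highest for 6 genes and was highest for G6pc, Pcx and Slc37a4. AntagomiR-122 replicate 2 was among the 3 lowest for 6.

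**Figure D3:**
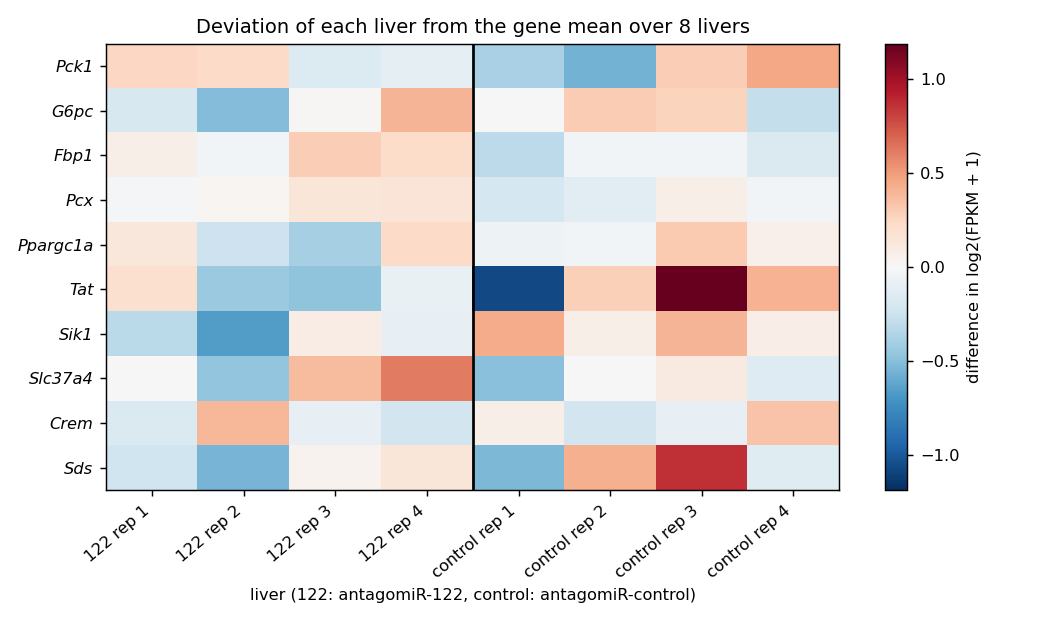
Deviation of each liver (columns, antagomiR-122 left of the line and antagomiR-control right of it) from the mean of a gene over the 8 livers, in log2(FPKM + 1) by colour, for the 10 genes (rows). Tat has the strongest colours, low in antagomiR-control replicate 1 and high in antagomiR-control replicate 3, and no row changes colour cleanly at the line.

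Pairs of genes were compared over the 8 livers on log2(FPKM + 1). None of 45 pairs passed after Benjamini-Hochberg adjustment (exact permutation of pairings, smallest adjusted p = 0.177 for Pearson's r and 0.241 for Spearman's rho), and 6 had an unadjusted p under 0.05 for each measure. Fbp1 and Pcx varied most alike (r = 0.85, exact permutation p = 0.00933; rho = 0.86, exact permutation p = 0.0107), followed by Fbp1 and Slc37a4 (r = 0.83, exact permutation p = 0.0111; rho = 0.71, exact permutation p = 0.0576). Without the 2 livers farthest from the Fbp1 median these were 0.63 and 0.74. G6pc and Crem varied in opposite directions (r = -0.82, exact permutation p = 0.0118; rho = -0.86, exact permutation p = 0.0107). Their r was -0.63 without the 2 livers farthest from the G6pc median and -0.41 without the 2 farthest from the Crem median. With 1 liver left out at a time it ranged from -0.96 to -0.69. With each group centred on its own mean, r was 0.72 for Fbp1 and Pcx, 0.91 for Fbp1 and Slc37a4 and -0.88 for G6pc and Crem (exact permutation within groups, adjusted p = 0.301, 0.0977 and 0.0977). Without antagomiR-122 replicate 1 the G6pc and Crem pair passed (r = -0.96, exact permutation, adjusted p = 0.00893). Pck1 and G6pc, both enzymes of the pathway, had an r of -0.54 (exact permutation p = 0.166; rho = -0.45, exact permutation p = 0.267).

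**Figure D4:**
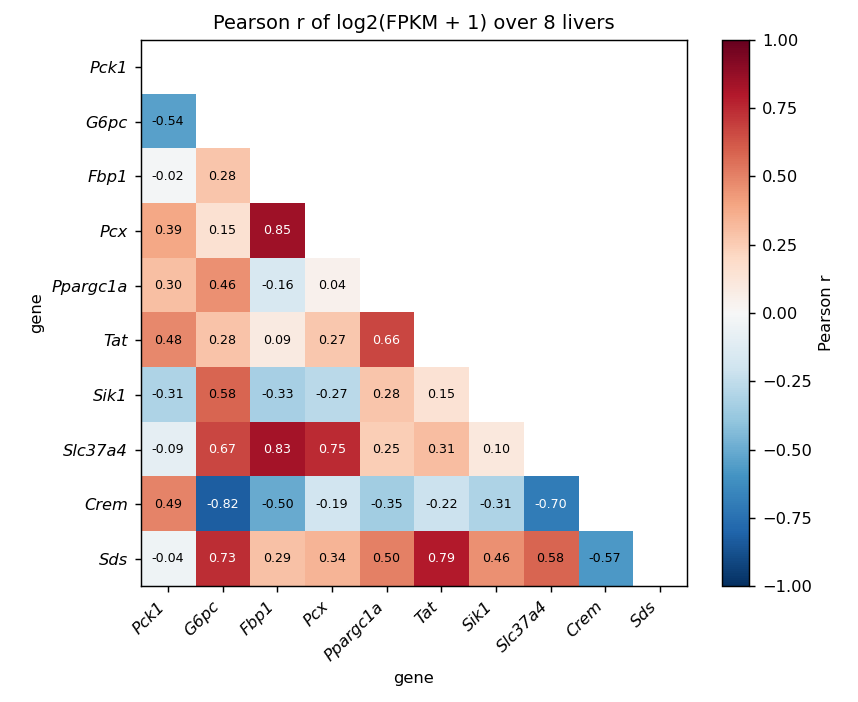
Pearson's r of log2(FPKM + 1) over the 8 livers for the 45 pairs of the 10 genes (rows and columns), with the value printed and coloured from -1 to 1. Fbp1, Pcx and Slc37a4 share high values (0.75 to 0.85), Crem is negative with every gene but Pck1, and the row of Pck1 with G6pc is negative.

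The transcripts most like Pck1 over the 8 livers, among 7106 named genes that averaged 5 FPKM or more, were Gfpt1 (r = 0.98), the first enzyme of hexosamine synthesis, Ccdc91 (0.97) and Hsp90b1 (0.94), a chaperone of the endoplasmic reticulum. For Ppargc1a they were Gm17090 (0.97), Inpp5a (0.95) and Svip (0.94), and for Sik1 they were Galnt11 (0.94), Lyve1 (0.93) and Ddx58 (0.92). These are the highest of many values over 8 points that share the same libraries, and 29, 19 and 5 genes exceeded 0.9 for Pck1, Ppargc1a and Sik1.

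The remaining enzymes and transporters of gluconeogenesis were mostly slightly higher with antagomiR-122, without passing the test. Of 21 tested, 19 were higher and 2 lower, and the median log2 fold change was 0.11, beside 53.0% higher and a median of 0.01 over all genes tested. All gene lists were chosen with earlier results of these data known, so such counts of directions are descriptive only. Among those with the smallest p were Eno1, an enolase, at 244 ± 21.4 FPKM in antagomiR-122 livers and 203 ± 11.9 in antagomiR-control livers, Slc25a10, the mitochondrial dicarboxylate carrier, at 95.2 ± 14.7 and 74.7 ± 11.2, and Gpi1, glucose-6-phosphate isomerase, at 129 ± 28.7 and 95.7 ± 14.2 (SD, n = 4 each). None of the 21 passed over all genes (limma, adjusted p = 0.522 for Eno1). Of the 21, 5 had an unadjusted p under 0.05, beside 7.44% of all genes tested. Eno1 was the 1 of 21 whose groups did not overlap, beside 4.52% of all genes tested. Eno1 and Gpi1 serve glycolysis as well.

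The other genes that cAMP induces were mostly lower with antagomiR-122, again without passing. Of 11 tested, 2 were higher and 9 lower, and the median log2 fold change was -0.17, beside 47.0% lower and a median of 0.01 over all genes tested. This list too was chosen with earlier results known, and the counts are descriptive only. The median was -0.08 with weights per liver or without antagomiR-122 replicate 3, -0.28 without antagomiR-control replicate 2 and -0.36 with a filter of mean 5 FPKM. Igfbp1, a binding protein of insulin-like growth factors, was at 61.0 ± 23.1 FPKM in antagomiR-122 livers and 187 ± 46.5 in antagomiR-control livers, Cebpb, a bZIP factor, at 30.4 ± 5.65 and 43.4 ± 6.54, and Dusp1, a phosphatase of MAP kinases, at 19.5 ± 9.98 and 34.0 ± 14.3 (SD, n = 4 each). None of the 11 passed (limma, smallest adjusted p = 0.251, for Igfbp1), and groups did not overlap in 1 of 11, Igfbp1, beside 4.52% of all genes tested. The acute CREB targets Nr4a1, Nr4a2, Nr4a3, Fos, Fosb and Areg lay under the filter of 1 FPKM, at 0.547, 0.466, 0.118, 0.672, 0.0392 and 0.0335 FPKM on average in antagomiR-122 livers and 0.717, 0.326, 0.0705, 1.095, 0.0731 and 0.0885 FPKM in antagomiR-control livers.

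Upstream, from the glucagon and adrenergic receptors to protein kinase A and CREB, 10 of 24 tested genes were higher and 14 lower, and the median log2 fold change was -0.01. Adra1b, an α1-adrenergic receptor, was at 19.5 ± 2.66 and 24.1 ± 2.73 FPKM in antagomiR-122 and antagomiR-control livers, Creb3l3, a liver bZIP factor that fasting induces, at 223 ± 22.6 and 187 ± 18.6, Prkar2a, a regulatory subunit of protein kinase A, at 27.7 ± 4.33 and 32.6 ± 1.05, and Creb1 at 4.54 ± 0.931 and 5.27 ± 0.256 (SD, n = 4 each). Gcgr, the glucagon receptor, was at 112 ± 7.03 and 105 ± 6.59 FPKM, and Adrb3, the target of CL316243, at 1.13 ± 0.227 and 1.35 ± 0.314 FPKM, in antagomiR-122 and antagomiR-control livers (SD, n = 4 each); these receptors were named outside the rule for their place in the pathway, after their values were seen. None of the 24 passed (limma, smallest adjusted p = 0.604).

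Among transcriptional regulators of gluconeogenesis, 11 of 18 tested were higher and 7 lower, with a median of 0.05. Cry2, a clock repressor that dampens the glucagon response, was at 6.43 ± 0.817 FPKM in antagomiR-122 livers and 3.64 ± 0.608 in antagomiR-control livers, Cebpa, a hepatocyte bZIP factor, at 95.5 ± 9.07 and 63.2 ± 9.52, and Esrra, an orphan nuclear receptor that PGC-1α coactivates, at 10.2 ± 1.54 and 7.27 ± 0.991 (SD, n = 4 each). Groups did not overlap in 3 of the 18, Cry2, Cebpa and Foxo3, the last named after its values were seen, beside 4.52% of all genes tested, but none passed over all genes (limma, smallest adjusted p = 0.251). Of 9 glucocorticoid-induced genes 3 were higher and 6 lower. Sgk1, a kinase of that response, was at 9.96 ± 2.77 and 17.1 ± 3.89 FPKM in antagomiR-122 and antagomiR-control livers (limma, adjusted p = 0.410). It was the 1 of 9 whose groups did not overlap, beside 4.52% of all genes tested. Zbtb16 and Ddit4 had log2 fold changes of 0.34 and -0.42.

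Amino acid catabolism and uptake, which feed the pathway, had 16 of 25 tested genes higher and 9 lower, with a median of 0.07. Slc38a2, a sodium-coupled neutral amino acid transporter, was at 42.1 ± 10.1 FPKM in antagomiR-122 livers and 65.7 ± 5.01 in antagomiR-control livers, and Gldc, of the glycine cleavage system, at 46.1 ± 5.59 and 55.9 ± 2.23 (SD, n = 4 each). In both the groups did not overlap, which is 2 of the 25, beside 4.52% of all genes tested. Slc38a3 and Oat had log2 fold changes of 0.30 and 0.33, and none of the 25 passed (limma, smallest adjusted p = 0.304). On the opposing side of the pathway, 3 of 8 glycolysis control genes were higher and 5 lower. None passed (limma, smallest adjusted p = 0.308, for a gene not reported here). Groups did not overlap in 1 of the 8, lower with antagomiR-122, beside 4.52% of all genes tested. Pdk4, a kinase that inhibits pyruvate dehydrogenase, was at 29.0 ± 19.9 and 63.3 ± 46.4 FPKM in antagomiR-122 and antagomiR-control livers (SD, n = 4 each; limma, adjusted p = 0.759), and Khk, ketohexokinase, had a log2 fold change of 0.18.

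Gluconeogenesis is a periportal function of the liver lobule, so zonation genes were set beside these values. Of 10 periportal genes 2 were higher and 8 lower (median log2 fold change -0.04), and of 13 pericentral genes 9 were higher and 4 lower (median 0.09). Cdh1, periportal E-cadherin, was at 6.67 ± 1.68 and 9.75 ± 1.52 FPKM, and Cyp2e1, a pericentral cytochrome P450, at 3191 ± 345 and 2603 ± 229 FPKM in antagomiR-122 and antagomiR-control livers (SD, n = 4 each). Neither list had a gene past the threshold (limma, smallest adjusted p = 0.554 and 0.561), and the part of zonation in the values of the 10 genes was not tested.

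**Figure D5:**
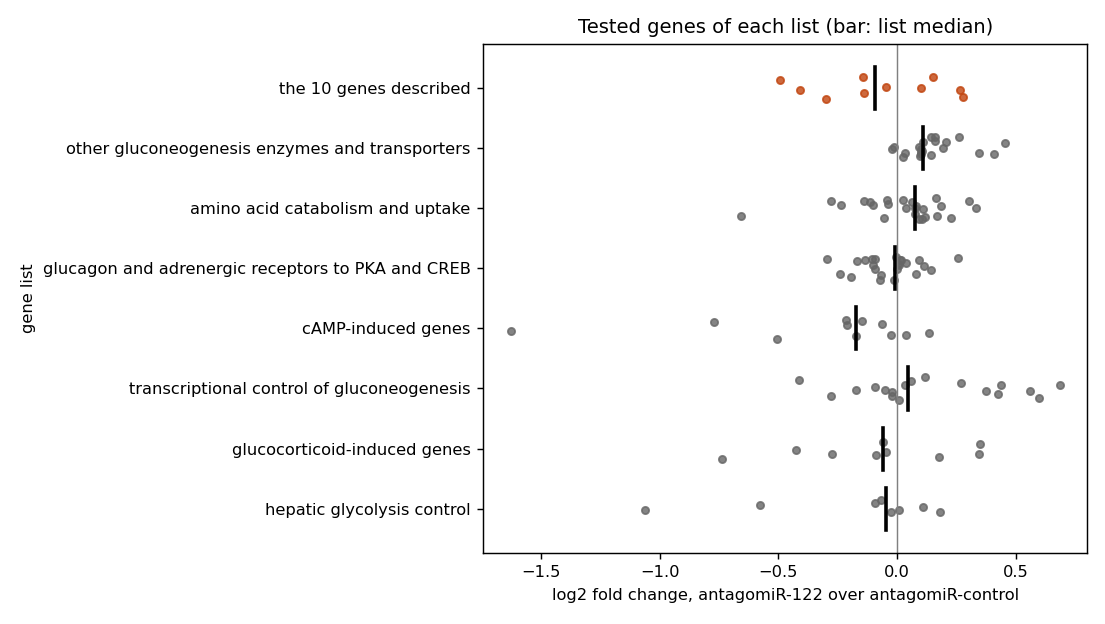
Log2 fold change (horizontal axis, antagomiR-122 over antagomiR-control) of each tested gene in 8 lists (rows), with a bar at the list median. The other gluconeogenesis genes lie mostly right of 0 (19 of 21), the other cAMP-induced genes mostly left of it (9 of 11, with Igfbp1 at -1.63), and the 10 genes described lie on both sides.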

How the data were processed

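Liver RNA from 8 mice (4 antagomiR-122, 4 antagomiR-control, all given CL316243) was sequenced, 1 library per mouse. Per the submitters' processing notes, the authors used GRCm38, TopHat2 (version 2.0.13), Cufflinks (version 2.2.1) and Cuffdiff, with bcl2fastq (version 2.15.0.4) and cutadapt (version 1.7.1) also named. The sources used here give no annotation release, strand setting or scaling method. Per the file headers, the deposited values are FPKM per library, with the authors' group FPKM, log2 fold change, test statistic (a score) and p-value and q-value; 0 columns were left unmatched. Depth in reads is unknown, so no counting interval is given. Relative depth was estimated from ratios of FPKM values under 0.3.

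The 11131 genes that averaged 1 FPKM or more were tested on log2(FPKM + 1) with limma 3.58.1 (R 4.3.3; trend, robust), without a replicate block, calling a Benjamini-Hochberg adjusted p under 0.05. The test was checked on simulated data that gave both groups the spread of the antagomiR-control livers. Single values used exact permutation of the 8 livers (numpy 2.4.6). Pairs of genes used exact permutation of pairings, with ranks from scipy 1.17.1. The 10 genes and all lists were chosen with earlier results of these data known. Named genes were the 10, the 3 with the smallest p of each list (4 for lists of more than 20), and the 3 most like Pck1, Ppargc1a and Sik1; others were named outside it as marker or overlap checks, as genes under the filter, for their place in the pathway (Gcgr, Adrb3) or because their groups did not overlap (Foxo3). Some genes that the rule names are not reported here. Whether the replicate numbers pair the livers was not tested, and only number 1 was best matched with its own. Alternatives covered pseudocount, filter, scaling, variance prior, weights, the block and leaving out each liver.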

Additional observations from a re-analysis of the deposited data

How the results depend on the processing

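Under all 16 alternatives limma with Benjamini-Hochberg adjustment called 0 genes, 0 of the 10 and 0 listed genes. Of 158 values of the 10 genes under alternatives, 152 kept their direction (smallest adjusted p = 0.387) and 6 turned, each with 1 liver left out. These were Crem without antagomiR-122 replicate 1 (0.0034), antagomiR-122 replicate 4 (0.019) or antagomiR-control replicate 4 (0.057), G6pc without antagomiR-122 replicate 2 (0.0034), and Pck1 without antagomiR-control replicate 1 (-0.01) or replicate 2 (-0.074). Over livers left out, log2 fold changes ranged from -0.19 to 0.06 for Crem, -0.30 to 0.0034 for G6pc and -0.07 to 0.27 for Pck1. Genes at an unadjusted p under 0.05 numbered 828, but 1296 with no filter, 531 with a filter of mean 5 FPKM and 603 to 978 over livers left out. Genes whose groups do not overlap numbered 503, but 315 with a filter of mean 5 FPKM and 704 to 1035 over livers left out, since fewer livers separate more easily. Pairs past the threshold numbered 0 to 1 over livers left out. Same-numbered livers of the 2 groups had correlations of 0.128, -0.24, -0.06 and -0.18 between their deviations over genes, and only number 1 was best with its own. With the replicate number as a block, 0 genes passed and 660 had an unadjusted p under 0.05, 2 of them among the 10. The number of livers and the FPKM unit, which hides the reads behind low genes such as Ppargc1a, limit the precision. Sik1 and Ppargc1a gave no value under the filter of mean 5 FPKM. The signs of the list medians held under both other scalings. The median of the 10 genes turned to 0.03 with a filter of mean 5 FPKM, and that of the bile duct list (-0.37) to 0.0044 with no filter. Leaving out 1 liver could turn the sign for the glucagon receptor to CREB, glucocorticoid, glycolysis control, periportal, hepatocyte marker and blood marker lists.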
